A study of Mus musculus with 19 samples.

Results

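miR-378 is a small family of mouse microRNAs, short RNAs that pair with messenger RNAs and lower their translation or stability. Every array entry whose name has the stem mmu-miR-378, with any letter and any arm, was taken, which gave 3 entries of 1136 miRNAs on the array, 1079 of them named as mouse miRNAs. They were mmu-miR-378a-3p, mmu-miR-378a-5p and mmu-miR-378b. Levels of miRNAs were measured in inherently active and inactive inbred male mice, in a brain region and in 2 hindlimb muscles. C57L/J mice were the high-active strain and C3H/HeJ mice the low-active strain. All animals were untreated, entered at 8 weeks of age, lived for a week with a locked running wheel and were harvested at 9 weeks. Samples were chosen for RNA integrity, and arrays with uneven signal had been set aside. The number in each sample name was read as the mouse, which the labels do not state, so the count of mice and every within-mouse difference rest on that reading. By it, the 19 arrays came from 8 mice, and they form 6 groups, with nucleus accumbens from 4 high-active and 3 low-active mice, soleus from 4 and 2, and extensor digitorum longus (EDL) from 2 and 4.

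mmu-miR-378a-3p and mmu-miR-378a-5p are the arms of a single hairpin that lies in an intron of Ppargc1b, the gene of PGC-1beta, a coactivator that drives mitochondrial and fuel-use genes. The family is known for its part in fatty acid oxidation and mitochondrial energy use in muscle, fat and liver, and for its rise as myoblasts differentiate. The soleus is a mainly slow, oxidative muscle, whereas the EDL is mainly fast and more glycolytic. The nucleus accumbens is part of the reward circuitry of the forebrain. mmu-miR-378b comes from a hairpin of its own and is nearly identical to mmu-miR-378a-3p, so that the probes of either may also bind the other and their signals are not independent.

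RefSeq places the mature mmu-miR-378b at chr11:88352839-88352858 on the plus strand of GRCm38.p6. It is shown beside some of the miRNAs whose signal was most correlated with that of mmu-miR-378a-3p. These are mmu-miR-22-5p over all 19 arrays and mmu-miR-361-5p and mmu-miR-365-3p over the 12 muscle arrays. Others as closely correlated, miR-1a-3p, miR-133a-3p, miR-133b-3p and miR-28c, are not shown. Sequences run 5′ to 3′, and the capitals mark the seed, bases 2 to 8, the stretch that pairs with targets.
mmu-miR-378b: cUGGACUUggagucagaaga
mmu-miR-22-5p: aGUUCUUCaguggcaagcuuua
mmu-miR-361-5p: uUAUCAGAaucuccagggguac
mmu-miR-365-3p: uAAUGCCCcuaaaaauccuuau
The seeds of mmu-miR-22-5p, mmu-miR-361-5p and mmu-miR-365-3p all differed from that of mmu-miR-378b. No mature sequence of mmu-miR-378a-3p was available, so its seed was not compared and may not be the stretch marked in mmu-miR-378b. mmu-miR-22-5p lies at chr11:75463734-75463755 on the plus strand and mmu-miR-361-5p at chrX:113074867-113074888 on the minus strand. mmu-miR-365-3p is encoded at both chr11:79726467-79726488 and chr16:13453895-13453916, both on the plus strand.

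Each member had 2 probes and 40 spots on every array, and no member spot was saturated. Levels are log2 of the signal of the brighter probe after all 19 arrays were scaled to a common 75th percentile, with a floor of 4.54. mmu-miR-378a-3p and mmu-miR-378b were above background on 19 of 19 arrays. mmu-miR-378a-5p was above background on all 12 muscle arrays and on 5 of 7 nucleus accumbens arrays. The EDL array of low-active mouse 195 stood apart, with 242 miRNAs detected against 266 to 392 on the others and an unscaled 75th percentile of 658 against 856 to 2209. Skeletal muscle markers miR-1a-3p, miR-133a-3p, miR-133b-3p and miR-206-3p were all called higher in muscle and all 8 brain markers lower. The brain-enriched miR-124-3p was at the floor in all muscle. The nucleus accumbens array of low-active mouse 197 had a summed muscle-marker level of 11.15 log2 units, against 8.73 to 9.09 on the other 6.

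The family was strongly muscle-enriched. In the nucleus accumbens, mmu-miR-378a-3p levels were 7.35, 7.53, 7.58 and 7.87 in high-active mice and 7.17, 7.50 and 7.76 in low-active mice. In soleus the levels were 11.54, 11.54, 11.58 and 11.87 in high-active mice and 11.74 and 12.07 in low-active mice. In EDL they were 12.39 and 12.50 in high-active mice and 11.73, 12.47, 12.85 and 12.90 in low-active mice. Every muscle array therefore lay far above every brain array, and the array of mouse 197 that carried the extra muscle-marker signal, at 7.50, lay inside the range of the other brain arrays. The summed marker level of that array was still far below the 18.85 to 19.70 of the muscle arrays. An effect on mmu-miR-378a-3p could thus be too small to see, and it was not tested.

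Taking both strains together, mmu-miR-378a-3p was 24.1-fold higher in muscle than in nucleus accumbens, a log2 difference of 4.59 (standard error 0.15, adjusted p = 6.46e-14, limma). mmu-miR-378b was 27.6-fold higher, a log2 difference of 4.79 (adjusted p = 2.67e-14). mmu-miR-378a-5p was 43.3-fold higher, a log2 difference of 5.44 (adjusted p = 2.43e-15). The brain level of mmu-miR-378a-5p was 4.54 to 5.22, at or just above the floor, so the size of its fold depends on how low signals were treated. With normexp background correction its log2 difference was 3.34. Each member rose in each muscle taken alone. Against the nucleus accumbens, the log2 difference of mmu-miR-378a-3p was 4.24 in soleus and 4.94 in EDL. These calls were common: 82.4% of the 484 miRNAs tested were called between muscle and nucleus accumbens, 33.7% as higher and 48.8% as lower in muscle, 78.9% between soleus and nucleus accumbens, and 75.8% between EDL and nucleus accumbens. The median log2 difference of all 484 was -0.21. In bulk tissue, fewer cells of a type and less RNA per cell cannot be told apart.

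**Figure D1:**
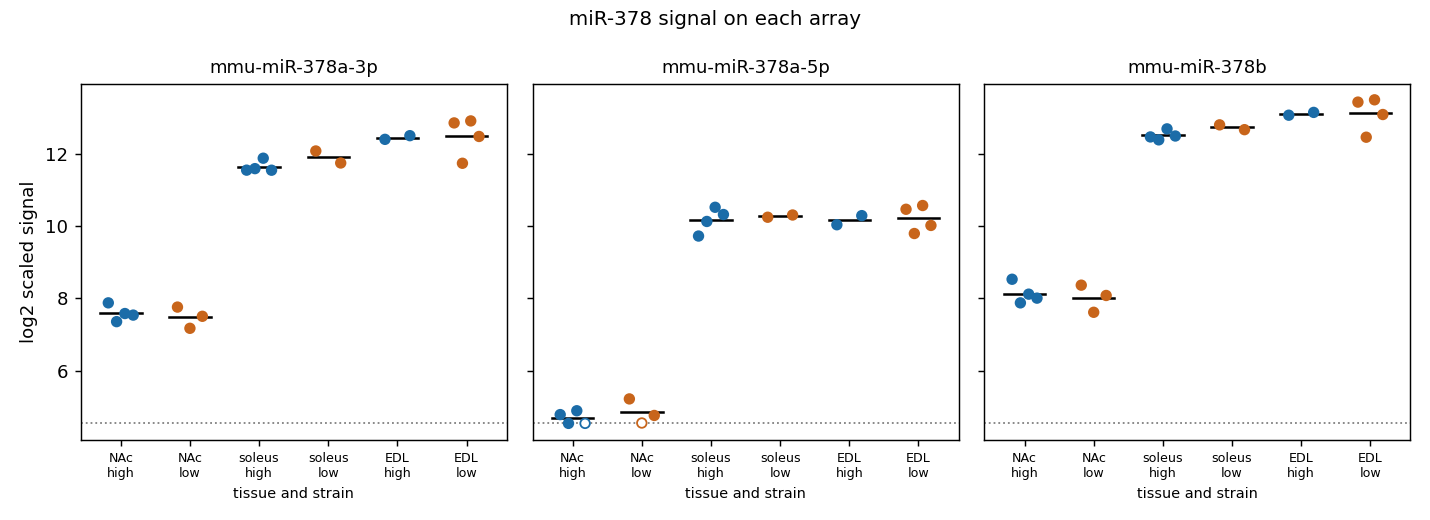
Log2 scaled signal of mmu-miR-378a-3p, mmu-miR-378a-5p and mmu-miR-378b on each of 19 arrays, by tissue (NAc, nucleus accumbens) and strain (blue, high-active; orange, low-active). Bars are group means, the dotted line is the floor of 4.54 and open points were not above background; all muscle points of mmu-miR-378a-3p lie between 11.54 and 12.90 and all brain points between 7.17 and 7.87.

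In the mice that gave both tissues, the difference had the same sign throughout. Soleus exceeded nucleus accumbens for mmu-miR-378a-3p in 6 of 6 mice, by 3.67 to 4.57 log2 units. EDL exceeded it in 5 of 5 mice, by 4.56 to 5.09. The result did not rest on a strain, since the log2 difference between muscle and nucleus accumbens was 4.46 in high-active and 4.72 in low-active mice.

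Between the muscles, mmu-miR-378a-3p was lower in the slow soleus than in the fast EDL. Its mean was 11.73 ± 0.21 in soleus and 12.48 ± 0.42 in EDL (SD, n = 6 each). All 6 soleus values were at or below 12.07, and 5 of 6 EDL values were above 12.07. The exception was the dim EDL array of low-active mouse 195, at 11.73, so the groups overlapped. With the strains weighted equally, the log2 difference was -0.70 (95% interval -1.10 to -0.30), a 1.62-fold lower level in soleus (adjusted p = 0.016, limma). Of all 484 miRNAs, 16.1% were called in this comparison with 7.02% higher and 9.09% lower in soleus, and the median log2 difference of all of them was 0. The 484 include miRNAs at the floor on every muscle array, such as miR-124-3p, whose difference could only be 0. The shares and the median partly reflect these.

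mmu-miR-378b was 12.38, 12.46, 12.49 and 12.68 in high-active soleus and 12.66 and 12.80 in low-active soleus. In EDL it was 13.06 and 13.14 in high-active mice and 12.45, 13.08, 13.42 and 13.49 in low-active mice. All EDL values other than that of mouse 195 lay above all soleus values. The log2 difference, soleus minus EDL, was -0.49 (95% interval -0.88 to -0.10), which did not pass the adjustment (adjusted p = 0.0877).

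mmu-miR-378a-5p gave different values from its partner arm. It was 9.72, 10.12, 10.32 and 10.52 in high-active soleus, with 10.24 and 10.30 in low-active soleus. In EDL it was 10.03 and 10.28 in high-active mice and 9.79, 10.01, 10.46 and 10.56 in low-active mice. The muscles overlapped over nearly their whole range. The log2 difference was 0.04 (95% interval -0.33 to 0.40, adjusted p = 1), an interval that leaves room for a modest difference either way.

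**Figure D2:**
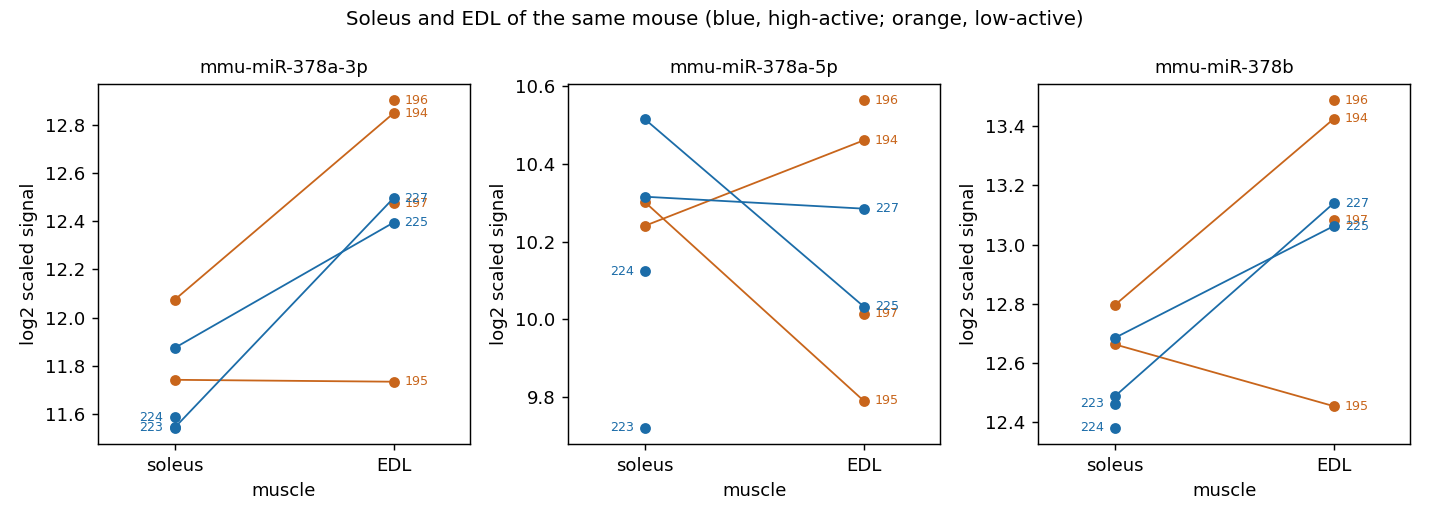
Log2 scaled signal in soleus and EDL for each miR-378 member, with lines joining the muscles of the same mouse (blue, high-active; orange, low-active; numbers are mice). mmu-miR-378a-3p is lower in soleus in mice 194, 225 and 227 and level in mouse 195, whereas the lines of mmu-miR-378a-5p run both ways.

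Within the 4 mice that gave both muscles, the soleus minus EDL difference of mmu-miR-378a-3p was -0.78 in mouse 194, 0.01 in mouse 195, -0.52 in mouse 225 and -0.96 in mouse 227. The same differences for mmu-miR-378b were -0.63, 0.21, -0.38 and -0.65. For mmu-miR-378a-5p they were -0.22, 0.51, 0.48 and 0.03. Mouse 195 thus stood apart for both mmu-miR-378a-3p and mmu-miR-378b, and its EDL array is the dim one.

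The call for mmu-miR-378a-3p depended on how the arrays were treated. Without the EDL array of mouse 195 the log2 difference was -0.93 (adjusted p = 5.28e-05), and mmu-miR-378b was then also called, at -0.71 (adjusted p = 0.00135). Without the soleus array of low-active mouse 195 the difference of mmu-miR-378a-3p was -0.61 (adjusted p = 0.101), and without the EDL array of high-active mouse 227 it was -0.68 (adjusted p = 0.0552). In a paired fit over the 4 mice with both muscles, with the mouse as a replicate block, it was -0.56 (adjusted p = 0.147). With no scaling it was -0.46 (adjusted p = 0.543), and with scaling to spike-in RNA -0.36 (adjusted p = 0.677). Within the 3 slides the differences were -0.31, -1.14 and -0.89, with no test, and within the strains they were -0.81 in high-active mice (adjusted p = 0.062) and -0.58 in low-active mice (adjusted p = 0.32).

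**Figure D3:**
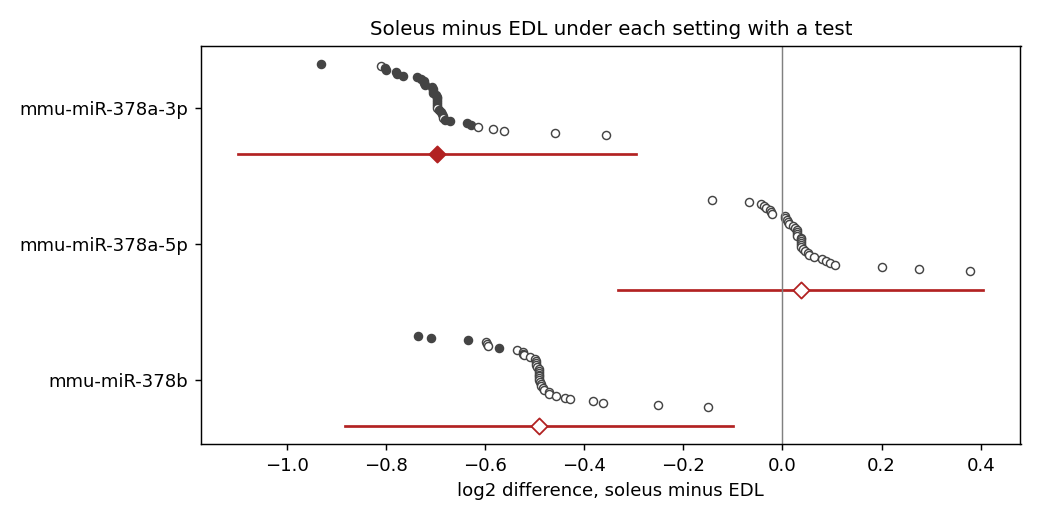
Log2 difference, soleus minus EDL, of each miR-378 member: the diamond and bar give the reported value with its 95% interval, and the circles the value under each other setting that had a test. Filled symbols passed an adjusted p of 0.05; every value of mmu-miR-378a-3p and mmu-miR-378b is below 0, whereas those of mmu-miR-378a-5p lie on both sides.

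Other values moved with muscle type. Both slow-fibre markers were far higher in soleus, miR-499-5p by 4.60 log2 units and miR-208b-3p by 3.78. Of 2 measured red cell miRNAs, miR-451a was 1.07 higher in soleus (adjusted p = 0.0393, limma). The other, miR-144-3p, was not called, at 0.46 (adjusted p = 0.65, limma), and miR-486-5p was not matched to an array entry. Of 4 vessel miRNAs, 1 was higher in soleus, miR-126-3p, by 0.40 (adjusted p = 0.00415, limma). The other vessel miRNAs, miR-126-5p, miR-143-3p and miR-145a-5p, gave 0.31, 0.0085 and -0.25. Of the 4 skeletal muscle miRNAs, miR-206-3p was 3.30 higher in soleus (adjusted p = 3.17e-06), and miR-1a-3p, miR-133a-3p and miR-133b-3p were not called, at -0.33, -0.61 and -0.55. Of the measured members of the leukocyte and connective tissue lists, 0 of 3 were called in each, with 0 of 2 in the brown fat list and 0 of 8 in the brain list. The brain count was partly fixed by the floor. Some of its miRNAs, miR-137-3p among them, never rose above the floor in either muscle, so a call was impossible for those. The summed level of the red cell list ran from 12.13 to 12.89 in soleus and from 10.70 to 12.08 in EDL, and that of the skeletal muscle list from 18.85 to 19.27 and from 19.01 to 19.70. Their part in the miR-378 values was not tested.

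The difference between the arms, mmu-miR-378a-3p minus mmu-miR-378a-5p, was compared between tissues, since the levels of different probes cannot be set against each other. The mmu-miR-378a-3p probes may also bind mmu-miR-378b, which comes from another hairpin. The value is therefore a difference of signals, and the part of mmu-miR-378b in it was not tested. In soleus it was 1.23, 1.36, 1.46 and 1.82 log2 units in high-active mice and 1.44 and 1.83 in low-active mice. In EDL it was 2.21 and 2.36 in high-active mice and 1.94, 2.34, 2.39 and 2.46 in low-active mice. The 6 soleus values all lay below the 6 EDL values, including that of mouse 195.

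The arm difference averaged 1.52 ± 0.25 in soleus and 2.28 ± 0.19 in EDL (SD, n = 6 each). It was smaller in soleus in 4 of 4 mice with both muscles, by 0.50 to 1.00 and by 0.76 on average. The exact two-sided sign-flip permutation test over these 4 mice gave p = 0.125, the smallest it can give. An exact permutation of the 12 muscle arrays, chosen after the data were seen and treating arrays of the same mouse as separate, gave p = 0.00216, also the smallest possible. The mean stayed between -0.85 and -0.68 under the 20 alternatives. Scaling an array by a single factor cancels out of this difference, so the alternatives of that kind could not move it.

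The arm difference averaged 2.78 ± 0.20 in nucleus accumbens (SD, n = 7), with a range of 2.54 to 3.09. Because mmu-miR-378a-5p was near the floor there, these values are lower bounds where it sat at the floor. Muscle minus nucleus accumbens was negative in 7 of 7 mice, with a mean of -0.91 (exact sign-flip p = 0.0156, the smallest possible; adjusted over the 5 arm tests p = 0.0781). Each mouse entered with the muscle arrays it had. Mice 223 and 224 had soleus alone and mouse 197 EDL alone, so this mean mixes muscles whose arm differences were unlike. The direction turned when the background was corrected by normexp with an offset of 50, to 0.62.

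**Figure D4:**
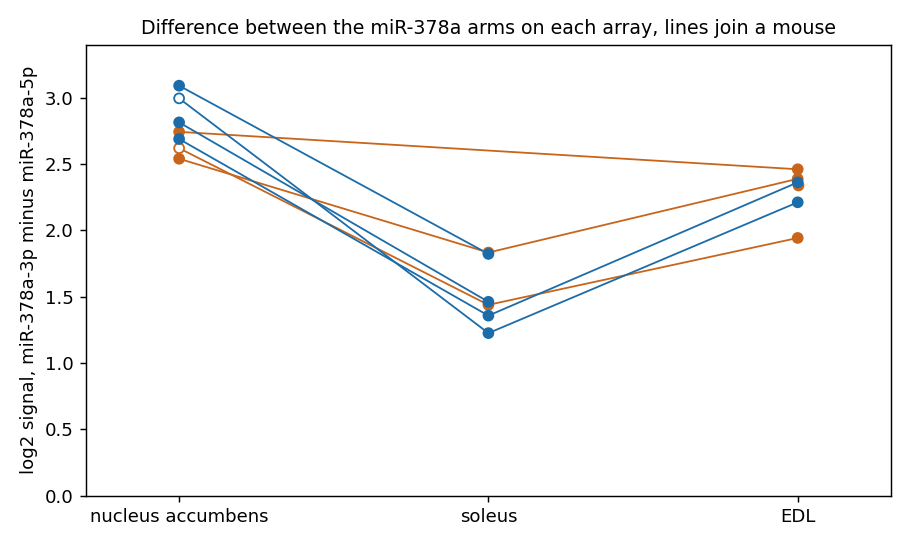
Log2 signal of mmu-miR-378a-3p minus that of mmu-miR-378a-5p on each array, by tissue, with lines joining a mouse (blue, high-active; orange, low-active; open, mmu-miR-378a-5p not above background). Soleus values run from 1.23 to 1.83, all below the EDL values of 1.94 to 2.46. The mmu-miR-378a-3p signal may include mmu-miR-378b.

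No member passed the test for a strain difference in any tissue. For these comparisons each tissue was scaled on its own arrays. In nucleus accumbens the high-active minus low-active log2 difference was 0.14 for mmu-miR-378a-3p (95% interval -0.24 to 0.53, adjusted p = 0.633), -0.13 for mmu-miR-378a-5p (-0.55 to 0.29) and 0.15 for mmu-miR-378b (-0.31 to 0.60). In soleus it was -0.21 for mmu-miR-378a-3p (-0.63 to 0.20, adjusted p = 0.556), -0.04 for mmu-miR-378a-5p (-0.62 to 0.54) and -0.17 for mmu-miR-378b (-0.47 to 0.14). In EDL it was -0.06 for mmu-miR-378a-3p (-0.82 to 0.71, adjusted p = 0.958), -0.06 for mmu-miR-378a-5p (-0.63 to 0.50) and -0.02 for mmu-miR-378b (-0.71 to 0.67).

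In EDL a difference of 0.71 log2 units lies inside the interval of mmu-miR-378a-3p. With no scaling the soleus differences of mmu-miR-378a-3p and mmu-miR-378b moved to -0.92 (adjusted p = 0.0602) and -0.88 (adjusted p = 0.0538), outside the intervals above. The low-active soleus arrays were brighter as a whole, with an unscaled 75th percentile of 1776 to 1786 against 856 to 1440 on the high-active ones. With no scaling 52 miRNAs were called in soleus, against 4 with scaling. The share of all miRNAs called was 6.91% of 391 in nucleus accumbens, 1.17% of 342 in soleus and 0.303% of 330 in EDL. No member passed the test for a strain difference that varied between tissues: between soleus and EDL the difference for mmu-miR-378a-3p was -0.23 (adjusted p = 1, with 0.62% of miRNAs called), and between muscle and nucleus accumbens -0.27 (adjusted p = 0.694, with 8.68% called). The arm difference gave a strain difference of 0.26 in nucleus accumbens (exact permutation p = 0.114), -0.17 in soleus (p = 0.6 by the same exact test) and 0.0038 in EDL (exact p = 1). With 2 arrays in a group, the muscles could not reach below p = 0.0667 in that exact test.

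**Figure D5:**
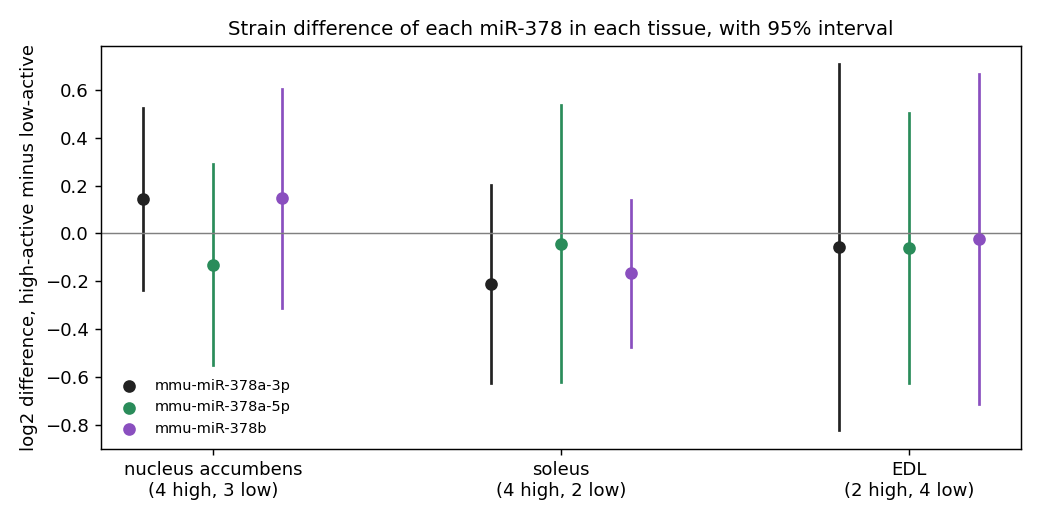
High-active minus low-active log2 difference of mmu-miR-378a-3p, mmu-miR-378a-5p and mmu-miR-378b in each tissue, with 95% intervals from limma; all 9 intervals include 0, and those of mmu-miR-378a-3p in EDL run from -0.82 to 0.71.

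Within muscle, mmu-miR-378a-5p followed mmu-miR-378a-3p less closely than mmu-miR-378b did. Over all 19 arrays, the Pearson r of mmu-miR-378a-3p was 0.999 with mmu-miR-378b and 0.987 with mmu-miR-378a-5p, over points that include both muscle and brain. Over the 12 muscle arrays r was 0.989 with mmu-miR-378b but 0.459 with mmu-miR-378a-5p, which ranked 52nd of 216 miRNAs. These arrays share mice, slides and scaling, so no p is given.

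The miRNAs closest to mmu-miR-378a-3p over 19 arrays, after mmu-miR-378b, were miR-22-5p (r = 0.989), miR-1a-3p, miR-133a-3p and miR-133b-3p (each r = 0.985), among 183 detected throughout. miR-1a-3p and the miR-133 pair are the classical muscle miRNAs. Over the 12 muscle arrays they were miR-361-5p and miR-28c (each r = 0.919), miR-1a-3p (r = 0.917) and miR-365-3p (r = 0.916). miR-365-3p, which is linked to brown fat differentiation, showed a soleus minus EDL log2 difference of -0.59 (adjusted p = 0.0742).

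A list of miRNAs tied to PGC-1, mitochondria or fuel use held 36 names, of which 33 were measured in the tissue comparison. In soleus against EDL 8 were higher, 2 lower and 23 not called, with a median log2 difference of 0.16. Over all 484 miRNAs, 7.02% were higher, 9.09% lower and the median was 0. Both the list and the 484 include miRNAs at the floor on every muscle array, which could not be called here. In soleus, 29 of the 33 were above background on at least 2 arrays, against 342 of the 484. The shares of the list and of all miRNAs are therefore not directly comparable. The 6 smallest p-values belonged to miR-499-5p (4.60), encoded in a slow myosin gene, miR-27b-3p (0.68), miR-23a-3p (0.76), miR-27a-3p (1.09), miR-455-3p (-0.65) and miR-181a-5p (-0.51). Between muscle and nucleus accumbens 12 were higher, 14 lower and 7 not called, where 82.4% of all miRNAs were called, 33.7% higher and 48.8% lower. Between the strains 1 of 30, miR-338-3p (0.64, adjusted p = 0.0369), was higher in high-active nucleus accumbens and 0 of 29 were called in each muscle, beside 6.91%, 1.17% and 0.303% of all miRNAs in nucleus accumbens, soleus and EDL. Of 3 miRNAs linked to exercise training, miR-29a-3p (0.50) and miR-451a (1.07) were higher in soleus and miR-26a-5p was not called (-0.25).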

How the data were processed

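Total RNA from 19 tissue samples of 8 mice was hybridised by the authors to Agilent 1-colour miRNA arrays and read with Feature Extraction 10.7.1.1. The deposited scanner files give each spot's processed signal as an intensity, after the software's background subtraction, with the software's total signal and detection flag per miRNA. The authors also deposited a table of log2 values, shifted to the 75th percentile and centred on each tissue's median. Its array medians ran from -0.40 to 0.75. It was used only as an alternative for the strain comparisons. Its miR-378 entries matched the scanner values within 0.0105 log2 units after 1 shift per array, other than mmu-miR-378a-5p in nucleus accumbens (within 0.795).

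Here, spots of a probe were averaged without outlier spots. A probe counted as above background if over a 0.5 share of its spots was flagged so. Arrays were scaled to the 75th percentile of the 328 probes above background on all 19 arrays, low values were set to the floor (signal 23.3), and the brightest probe stood for each miRNA. limma 3.58.1 in R 4.3.3 was fitted over 6 groups for tissues, on 484 miRNAs above background on at least 2 arrays, and within each tissue for strains (at least 3 arrays in nucleus accumbens, 2 in a muscle). Calls used a Benjamini-Hochberg adjusted p of 0.05. Arm differences were tested by exact permutation. The limma contrast of soleus against EDL was checked on simulated log2 values, and the permutation tests on small made-up inputs. Scaling, the floor, the choice of probe and the strain fits were not checked this way.

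The members and lists were chosen with earlier results of these data known. Named miRNAs were all members, the 5 with the highest r to mmu-miR-378a-3p in each array set, and up to 6 called members of each list. miR-338-3p and miR-26a-5p were named after their values were seen. Other list members not called in soleus against EDL were also named outside this rule. They were miR-144-3p, miR-126-5p, miR-143-3p, miR-145a-5p, miR-124-3p and miR-137-3p. The number in each sample's name was read as the mouse, so that arrays of different tissues with the same number were paired. The labels do not state this, and it is an assumption. Correlations of deviations between same-numbered arrays ran from -0.67 to 0.54 over 15 pairs, with 8 above 0.1. The replicates are separate mice of each strain. Alternatives covered scaling, background, probe, filter, floor, block, slide and leaving out each array. Array number and signal over background limit the precision. The files held no column outside these samples. The array's file headers name an older mouse build than the GRCm38.p6 of the sequences, so coordinates come from RefSeq alone. The files carried the median spot signal rather than the mean, and normexp used it.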

Additional observations from a re-analysis of the deposited data

Results flagged for a closer look

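The mmu-miR-378a-3p level of the soleus array of high-active mouse 225, at 11.87 log2 units, lay far from the other 3 arrays of its group, which ran from 11.54 to 11.58. The gap to its nearest neighbour was 0.868 of the group's range, above the 95% limit of Dixon's test for 4 samples. It was the single case among 75 checks of 25 quantities in the 3 groups of 4 arrays, and chance flags about 1 in 20 such groups. The cause was not tested.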

How the results depend on the processing

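The muscle enrichment of all 3 members kept its direction and its call under every alternative that gave a test. mmu-miR-378a-5p could not be tested where detection on all arrays was required, and its difference was 3.34 with normexp. Within slide 1 it was 4.21, 5.01 and 4.37 for mmu-miR-378a-3p, mmu-miR-378a-5p and mmu-miR-378b, and within slide 2 it was 4.93 and 5.14 for mmu-miR-378a-3p and mmu-miR-378b.

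The soleus minus EDL difference of mmu-miR-378a-3p stayed negative throughout. Its call was lost with no scaling (-0.46), spike-in scaling (-0.36), no filter on dim miRNAs (-0.70, adjusted p = 0.0572), the paired fit with the mouse as a replicate block (-0.56) and within high-active (-0.81) or low-active (-0.58) mice. With the mouse as a random replicate block it was -0.69 (adjusted p = 0.0112). Leaving out an array gave -0.93 to -0.61. mmu-miR-378b was called with quantile normalization (-0.63), median-of-ratios scaling (-0.52), its second probe (-0.74) and the muscle arrays alone (-0.57), and ranged from -0.71 to -0.43 without an array. mmu-miR-378a-5p turned negative with scaling over all probes (-0.068), quantile normalization (-0.023), the software total (-0.032), slide as a block (-0.038) and the muscle arrays alone (-0.044), and ranged from -0.14 to 0.11 without an array. Within slide 1 the members gave -0.31, 0.37 and -0.12, within slide 2 -1.14, -0.29 and -0.90, and within slide 3 mmu-miR-378a-5p gave -0.30.

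Strain differences of the members stayed uncalled throughout, but sizes moved and signs turned. With no scaling the soleus differences of mmu-miR-378a-3p, mmu-miR-378a-5p and mmu-miR-378b were -0.92 (adjusted p = 0.0602), -0.76 and -0.88 (adjusted p = 0.0538). Before scaling, the low-active soleus arrays were brighter as a whole than the high-active ones. With the software total mmu-miR-378a-5p in nucleus accumbens was -1.02. Scaling over all probes gave 0.017 for mmu-miR-378a-5p in nucleus accumbens, 0.038, 0.21 and 0.084 in soleus and 0.14, 0.14 and 0.18 in EDL, in the order mmu-miR-378a-3p, mmu-miR-378a-5p, mmu-miR-378b. Slide as a block gave 0.077 and 0.11 for mmu-miR-378a-5p in nucleus accumbens and soleus, and 0.23, 0.14 and 0.22 in EDL. For mmu-miR-378a-5p in nucleus accumbens, no scaling gave 0.049, quantile normalization 0.026 and the authors' values 0.035, and its second probe gave 0.026 in soleus. mmu-miR-378b in EDL was 0.024 with no scaling and 0.0090 with median-of-ratios scaling. Leaving out an array gave -0.46 to 0.034 and -0.19 to 0.031 for the arms of miR-378a in soleus, and -0.46 to 0.058, -0.35 to 0.035 and -0.39 to 0.079 for the 3 members in EDL. Within slide 1 soleus gave 0.19 and 0.27 for the arms and EDL 0.65, 0.38 and 0.57 for the members. Within slide 2 nucleus accumbens gave 0.38 for mmu-miR-378a-5p and 0.55 for mmu-miR-378b.

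The arm difference between muscle and nucleus accumbens turned to 0.62 with normexp and was -0.60 with the software total (exact p = 0.203). Its strain difference in nucleus accumbens gave exact permutation p = 0.0286 with scaling over all probes (0.38), quantile normalization (0.19) and the software total (1.20). That p is the smallest possible there, and it was not adjusted over the 5 arm tests. The level of mmu-miR-378a-5p near the floor limits these values.

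Of all miRNAs, 78 were called between soleus and EDL, against 37 with spike-in scaling, 33 with normexp, 37 among those detected on all arrays, 11 in the paired fit, 31 within low-active mice and 128 without the EDL array of mouse 195. Between muscle and nucleus accumbens 399 were called, against 156 among those detected on all arrays. Strain counts were 27 in nucleus accumbens (4 to 59), 4 in soleus (0 to 52) and 1 in EDL (0 to 10). Causes of these changes were not tested.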
